A study of Mus musculus with 8 samples.

Results

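Lysosomes are acidic compartments in which proteases, glycosidases, sulfatases and lipid enzymes break down material delivered by endocytosis and autophagy. The enzymes are made in the endoplasmic reticulum, mostly carried to the lysosome by mannose 6-phosphate receptors or sortilin, and work inside a membrane of heavily glycosylated proteins such as Lamp1 and Lamp2, across which a proton pump keeps the lumen acid. Many of their genes share a short promoter sequence, the E-box bound by the transcription factors Tfeb and Tfe3, and in breast tumours cathepsins are known both inside cells and as secreted enzymes that cut the matrix.

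The transcripts of 32 genes of lysosomal enzymes and membrane proteins were followed, taken by name as a set of known lysosomal genes. They comprised 11 proteases, 12 enzymes that degrade glycans, 5 lipid enzymes or lipid-binding proteins and 4 membrane proteins. All 32 were found by RefSeq accession, with 50 probes among the 41174 probes of a whole-genome mouse array, and 18883 gene symbols were matched in all. Where a gene had several probes, the brightest was used, and the differences of the others are given too. Probe brightness was the mean log2 signal of sample and reference together.

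RNA came from cell lines of mammary tumours of FVB mice carrying the polyoma middle T (PyMT) oncogene, and all 8 samples had been in 50 uM camptothecin, a drug that traps topoisomerase I on DNA, for 36 hours. In the first experiment, cells of a line named WTA, wild type for Mtdh per the labels, carried a lentiviral hairpin against Snd1 (LKO1-shSnd1, 3 arrays) or the empty LKO1 vector (3 arrays), and were selected with puromycin. Snd1 encodes a nuclease-domain protein that binds Mtdh, also known as metadherin. In the second, cells of a line named KO2, which lacks Mtdh, carried wild-type Mtdh (LmPGK-mMtdh-ires2-GFP, 1 array) or the W391D form of Mtdh, which per the series' design text is deficient in Snd1 binding (1 array), and were sorted for GFP. No array without camptothecin and none of KO2 cells without a rescue construct was analysed here, each genotype is 1 cell line, and the labels do not say whether the 3 replicates were separate cultures, so p-values measure the spread between these arrays. Sample RNA carried Cy5 on every array, and a reference RNA pooled from 11 mouse cell lines carried Cy3, so each value is a log2 ratio to that reference. The ratios were centred within each array, so 0 is the centre of spots of like brightness and not equal signal in both dyes. Above or below the reference means above or below 0 on this scale. A value says nothing of one gene's level against another's.

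Snd1 itself was at -3.23, -3.33 and -3.44 with the hairpin and at -2.49, -2.40 and -2.43 with the vector. It fell by 0.90 ± 0.06 (SE, n = 3 and 3; limma adjusted p = 1.04e-05), and the groups did not overlap. Median Cy5 brightness was 158 to 363 per array over a background of 61 to 72, and no spot was saturated. Arrays of a group correlated at 0.978 to 0.992 over probes, and knockdown with vector arrays at 0.854 to 0.874. The tissue markers also moved between the groups. Of 12 epithelial markers, 8 were lower and 2 higher in the knockdown, with a summed Cy5 signal of 198456 to 213401 against 259388 to 300377 with the vector. Of 11 fibroblast markers tested, 7 were higher and 0 lower, with sums of 80163 to 84821 against 74953 to 75442. Over all features tested, 23.7% were higher and 21.1% lower. Epcam stayed above the reference on every array (0.98 to 2.52) and Col1a1 far below it (-6.64 to -4.06), although Col1a1 rose by 2.39. In bulk RNA, fewer cells of a type and less RNA per cell cannot be told apart, and the part of these shifts in the results below was not tested.

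The question of the first comparison was how expression under camptothecin differs with the Snd1 hairpin, which left Snd1 RNA lower by 1.86-fold and not absent. That size rests on 1 probe, and the log2 difference ran from -1.19 to -0.84 over the processing alternatives. As only this hairpin was used, its effects on other transcripts cannot be told apart from those of lower Snd1. Of the 31 lysosomal genes that could be tested, 17 rose in the knockdown and 7 fell (limma, Benjamini-Hochberg adjusted p under 0.05). Over all 25672 features tested, 23.7% were called higher and 21.1% lower, so the members' count of higher calls lay above that background, and the count of lower calls near it. The median difference of the members was 0.31 on the log2 scale, against 0.02 for all features. Most shifts were small: they ran from -0.62 to 3.95, and 4 genes, Dpp7, Ctsk, Hexa and Ctsa, rose by at least 2-fold, against 2.27% of all features. No member fell by 2-fold, against 1.52% of all features. Knockdown and vector arrays did not overlap for 28 of the 31, against 53.2% of all features. The classes differed in their counts. Of 10 proteases tested, 8 rose and 2 fell, with a median of 0.45. Of 12 glycan-degrading enzymes, 4 rose, 3 fell and 5 were not called, with a median of 0.04. Of 5 lipid genes, 3 rose and 1 fell (median 0.41), and of 4 membrane proteins 2 rose and 1 fell (median 0.03). The falls in these last classes were Ppt1 and Lamp2. Another probe of each was called higher, by 0.47 and 0.37, so these falls depend on the probe.

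**Figure D1:**
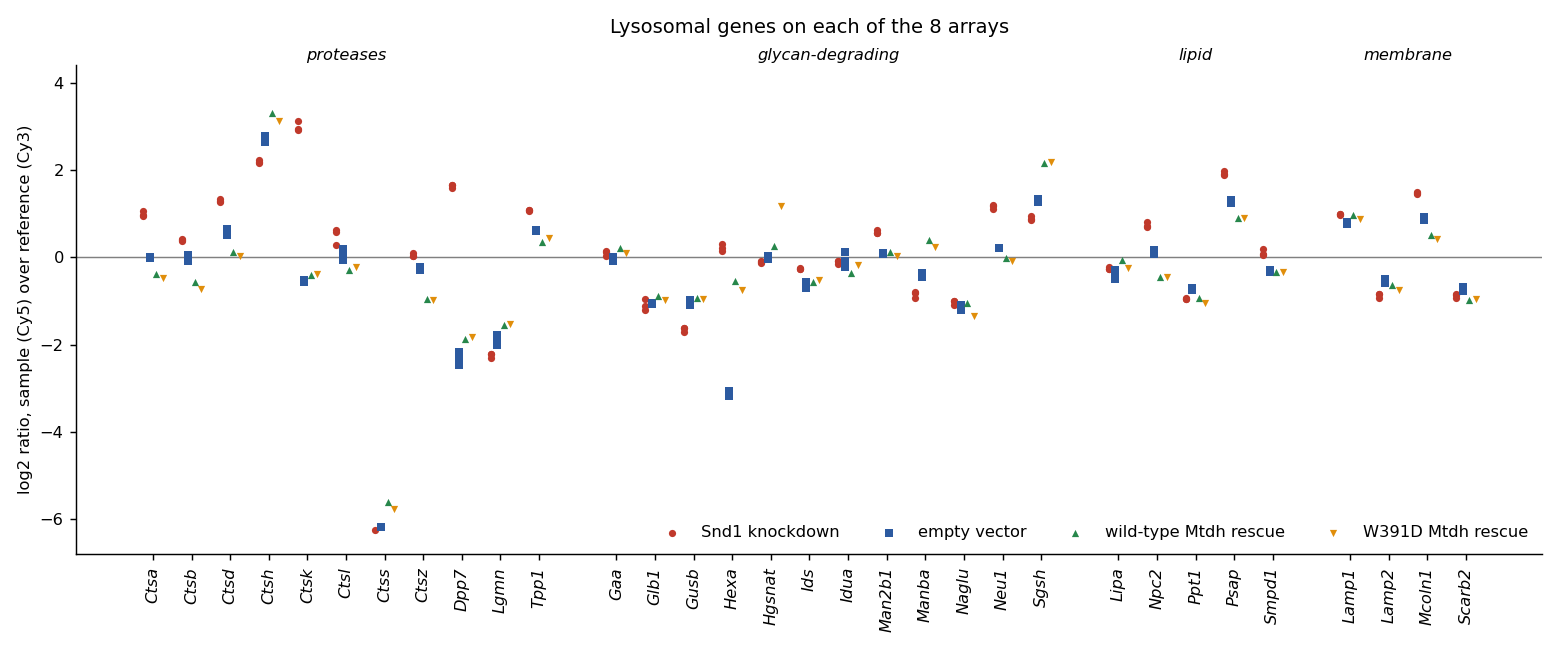
Log2 ratio of sample (Cy5) to reference RNA (Cy3) for each lysosomal gene on each array, by class, with 1 point per array and groups by colour and shape. Points of a group lie close together; Dpp7, Ctsk and Hexa show the widest gaps between the 3 knockdown and the 3 vector arrays, and Ctss lies near -6 on the arrays shown.

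**Figure D2:**
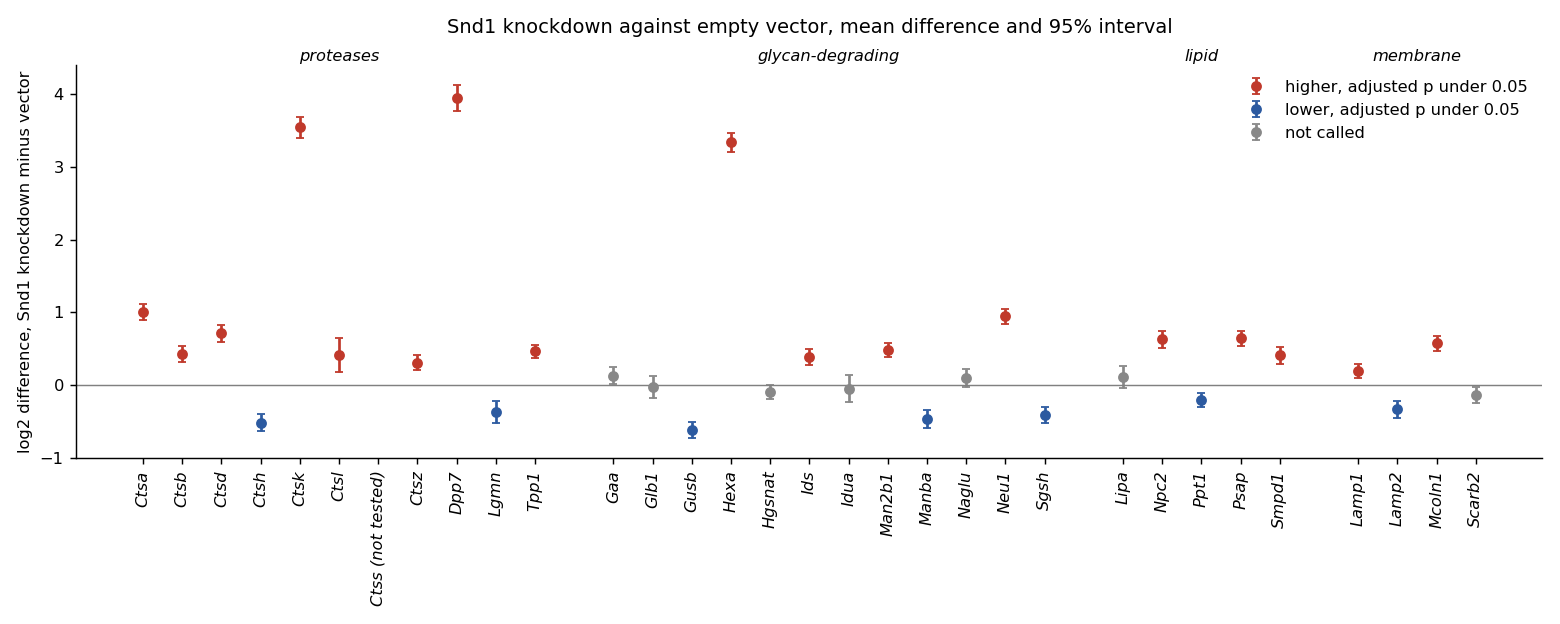
Difference in mean log2 ratio, Snd1 knockdown minus vector (3 arrays each), with 95% intervals from limma, by class. Of the genes tested, 17 lie above 0 and are called, 7 lie below 0 and are called, and 7 are not called; Ctss was not tested.

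The sequences just before the transcription starts are shown first, because the E-box is the element known to be shared by lysosomal genes. Each is the 100 bases before an annotated start, 5′ to 3′ on the gene's strand, from the RefSeq promoter table (GRCm38.p6), with E-boxes in capitals; Hexa and Ctsk are shown for their large rises.
Lamp1, chr8:13159061-13159160, plus strand: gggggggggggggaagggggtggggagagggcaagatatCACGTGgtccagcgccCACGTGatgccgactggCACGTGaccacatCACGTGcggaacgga
Mcoln1, chr8:3500419-3500518, plus strand: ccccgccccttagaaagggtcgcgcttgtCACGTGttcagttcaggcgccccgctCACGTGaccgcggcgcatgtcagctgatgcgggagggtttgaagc
Ctsd, chr7:142387828-142387927, minus strand: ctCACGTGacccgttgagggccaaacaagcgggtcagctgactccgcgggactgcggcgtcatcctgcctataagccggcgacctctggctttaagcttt
Dpp7, chr2:25356333-25356432, minus strand: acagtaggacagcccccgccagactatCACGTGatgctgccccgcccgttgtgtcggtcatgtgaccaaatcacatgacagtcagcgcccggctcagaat
Sgsh, chr11:119355511-119355610, minus strand: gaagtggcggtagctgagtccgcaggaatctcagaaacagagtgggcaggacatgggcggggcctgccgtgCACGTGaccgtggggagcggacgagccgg
Hexa, chr9:59539440-59539539, plus strand: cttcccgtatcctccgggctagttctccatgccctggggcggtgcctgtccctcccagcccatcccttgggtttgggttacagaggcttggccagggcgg
Ctsk, chr3:95499110-95499209, plus strand: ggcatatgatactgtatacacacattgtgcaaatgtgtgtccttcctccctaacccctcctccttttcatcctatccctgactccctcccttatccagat

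The search was for CACGTG, which reads the same on both strands, from 250 bases before to 50 after each start. It was found in a promoter of 11 of the 29 members that the table holds (37.9%), against 8.09% of all 27025 genes in it. The 8-base palindrome TCACGTGA, which contains the 6-base motif, was found in 4 of 29 (13.8%), against 1.12% of genes; these were Ctsa, Ctsd, Dpp7 and Mcoln1. Lamp1 held 4 E-boxes, at 61, 45, 28 and 15 bases before its start, the most of any member. Mcoln1, Ctsd and Ctsa held 2 each, and Ctsl, Dpp7, Gaa, Glb1, Lgmn, Naglu and Sgsh 1 each. For Ctsa and Lgmn the E-box in the 100 bases before a start lay at an annotated start inside the gene. The same 100 bases at the gene's end had none. For Dpp7 and Naglu the only promoter held did not start at the annotated end of the gene. The table had no promoter for Ctsb, Ctsh and Hgsnat. Genes with and without the motif moved in both directions. Of the 11 members with an E-box, 6 rose, 2 fell and 3 were not called (median 0.19). Of the 18 with a promoter but no E-box, 10 rose, 4 fell, 3 were not called and 1 was not tested (median 0.38). Over all features tested, 23.7% were called higher and 21.1% lower. Hexa and Ctsk, with rises of over 3 on the log2 scale, had none in this window, and Lamp1, with 4, rose by 0.19. Dpp7, with 1, had the largest rise of the members. The 4 genes with the 8-base palindrome, Ctsa, Ctsd, Dpp7 and Mcoln1, were all called higher, by 1.00, 0.71, 3.95 and 0.58. Whether the motif bears on these changes was not tested. A match is a description of letters and not of binding.

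**Figure D3:**
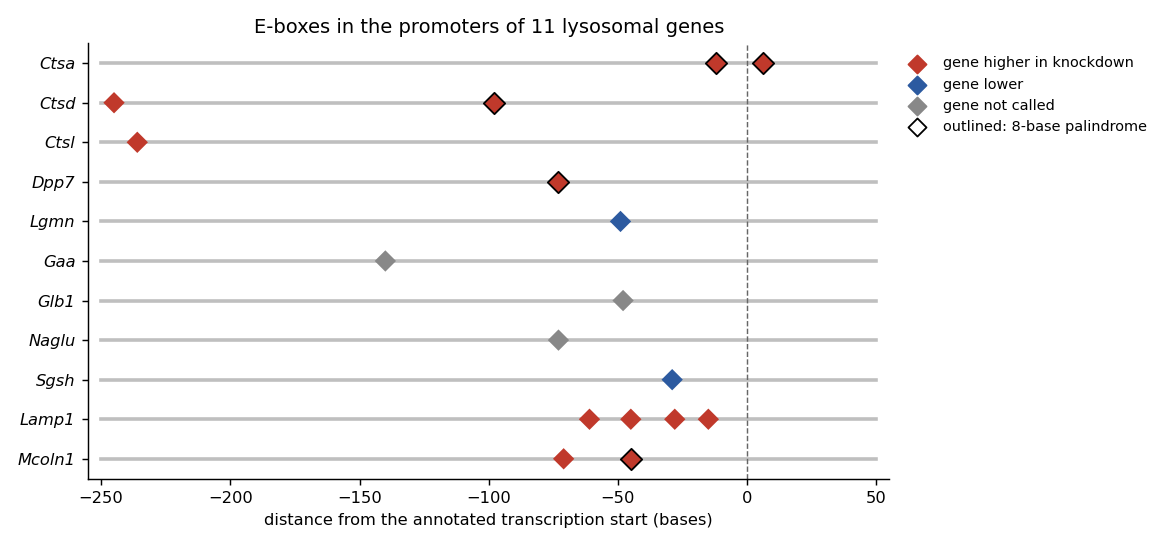
Position of each CACGTG relative to the annotated start (0) in the 11 promoters that hold it; grey bars show the window searched, colours the call in the knockdown, and black outlines the 8-base palindrome. Genes that rose, fell and were not called all hold E-boxes, and the 4 of Lamp1 lie closest together.

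Among the proteases, the rise was led by Dpp7, a serine dipeptidyl peptidase that removes dipeptides from the ends of peptides. Its ratio was 1.65, 1.66 and 1.59 on the knockdown arrays and -2.17, -2.48 and -2.29 on the vector arrays. The knockdown arrays thus lay above the reference and the vector arrays below it. The difference was 3.95 ± 0.08 (SE; limma adjusted p = 2.43e-08), which placed Dpp7 13th among the 25672 features in size of rise. Its second, dimmer probe gave a smaller rise of 1.06, from 1.00, 0.68 and 0.60 against -0.36, -0.32 and -0.24. The mean of both probes rose by 2.51.

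Ctsk, the collagen-cutting cathepsin K known from osteoclasts, stood at 2.94, 3.13 and 2.92 in the knockdown and at -0.57, -0.55 and -0.52 with the vector. The 3.54 ± 0.06 difference (SE; limma adjusted p = 1.68e-08) ranked 23rd among all features in size of rise. Cy5 was well above background on 5 of the 6 arrays, and the vector signal was dim. The size moved with the processing, to 5.38 in the software's own log ratios and 4.63 from Cy5 alone. Of the osteoclast markers, 3 of 8 rose, by at most 0.35, and 1 fell, against 23.7% of all features higher and 21.1% lower. The marker that fell was Acp5, the tartrate-resistant acid phosphatase, by 0.92 (limma adjusted p = 5.6e-06).

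Ctsa, the carboxypeptidase that protects Neu1 and beta-galactosidase in a complex, was at 1.06, 0.95 and 0.98 against -0.010, -0.014 and -0.0010. It rose by 1.00 ± 0.05 (limma adjusted p = 1.25e-06), and by 0.83 to 1.04 over the alternatives. Of its other probes, a bright one rose by 0.96 and a dim one by 0.53. Ctsd, the aspartic protease cathepsin D, was at 1.33, 1.29 and 1.27 against 0.52, 0.65 and 0.58, a rise of 0.71 ± 0.05 (limma adjusted p = 9.84e-06), and its second probe rose by 0.53. Tpp1, a tripeptidyl peptidase, rose by 0.46, from 0.60, 0.63 and 0.59 to 1.09, 1.07 and 1.05, and its second probe by 0.72. From Cy5 alone the adjusted p for Tpp1 was 0.0573, the highest over the alternatives, whose lowest was 1.11e-05.

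Of the 6 cysteine cathepsins of the papain family, 4 rose (Ctsb, Ctsk, Ctsl and Ctsz), 1 fell (Ctsh) and 1 (Ctss) was not tested. Ctsb, an endopeptidase and carboxypeptidase, was at 0.42, 0.38 and 0.40 against -0.07, 0.05 and -0.06, and rose by 0.43 ± 0.05 (limma adjusted p = 0.000169). A second, dim Ctsb probe differed by 0.08 and was not called (limma adjusted p = 0.426 over probes). Ctsl, a broad endopeptidase, rose by 0.41 ± 0.10 (limma adjusted p = 0.0108) with the widest scatter of the proteases, from 0.28, 0.62 and 0.57 against -0.07, 0.20 and 0.10. It was higher in the knockdown on both slides, by 0.35 and 0.44, but from Cy5 alone the adjusted p was 0.0506 (9.74e-05 to 0.0506 over the alternatives). Ctsz, a carboxypeptidase, rose by 0.31, from a vector mean of -0.26 ± 0.04 (SD, n = 3) to 0.05 ± 0.04, and its second probe rose by 0.34. Ctsh, an aminopeptidase, went the other way, from 2.64, 2.71 and 2.77 with the vector to 2.17, 2.18 and 2.23, and fell by 0.52 ± 0.05 (limma adjusted p = 6.88e-05).

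Lgmn, the asparaginyl endopeptidase that processes several cathepsins, also fell, by 0.37 ± 0.07 (limma adjusted p = 0.00198). It stood at -2.22, -2.20 and -2.31 in the knockdown and at -2.0, -1.78 and -1.85 with the vector. With the spread scaled between arrays its adjusted p was 0.0772 (0.000204 to 0.0772 over the alternatives). Ctss, the cathepsin of antigen-presenting cells, was not tested, since the software flagged its Cy3 spot as an outlier on 4 of the 6 arrays. With flagged spots kept, its ratio was -6.23, -6.17 and -6.09 in the knockdown, -6.17, -6.05 and -6.05 with the vector, and -5.60 and -5.76 on the rescue arrays. It lay far below the reference everywhere. Ptprc, the leukocyte marker CD45, was likewise at -6.20 to -5.76 on the 8 arrays. Of 18 macrophage and leukocyte markers tested 2 rose and 2 fell, against 23.7% of all features higher and 21.1% lower. With the replicate number as a block 5 of these markers rose. Cd68 was not analysed here.

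Among the glycan-degrading enzymes, Hexa changed most. It encodes the alpha subunit of beta-hexosaminidase A, which degrades gangliosides. Its ratio was 0.30, 0.21 and 0.15 in the knockdown and -3.06, -3.12 and -3.18 with the vector, with each group within a narrow band. The rise was 3.34 ± 0.06 (SE; limma adjusted p = 1.36e-08), 30th among all features in size of rise, and ran from 3.30 to 3.40 over the alternatives. It was measured by 1 probe. The rescue arrays lay between the groups, at -0.55 and -0.76.

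Neu1, the lysosomal sialidase, was at 1.20, 1.11 and 1.18 against 0.20, 0.22 and 0.22. It rose by 0.95 ± 0.04 (limma adjusted p = 1.38e-06), and its second probe by 0.84. Man2b1, the alpha-mannosidase, rose by 0.48 ± 0.04 (limma adjusted p = 3.64e-05), from a vector mean of 0.09 ± 0.01 (SD, n = 3) to 0.57 ± 0.04. Ids, a sulfatase of heparan and dermatan sulfate, rose by 0.38 ± 0.05 (limma adjusted p = 0.000289), but its 3 dimmer probes differed by 0.28, 0.03 and 0.08, of which the first was called, and from Cy5 alone the adjusted p was 0.165 (6.97e-05 to 0.165 over the alternatives).

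Gusb, Manba and Sgsh fell. Gusb, the beta-glucuronidase, was at -1.63, -1.62 and -1.70 in the knockdown and at -1.08, -0.98 and -1.03 with the vector, and fell by 0.62 ± 0.05 (limma adjusted p = 1.79e-05), the farthest of any member. Manba, the beta-mannosidase, was at -0.93, -0.83 and -0.80 against -0.44, -0.37 and -0.36, and fell by 0.46 ± 0.05 (limma adjusted p = 0.000173). Sgsh, the sulfamidase of heparan sulfate, was at 0.95, 0.86 and 0.89 against 1.26, 1.34 and 1.34, and fell by 0.42 ± 0.05 (limma adjusted p = 0.00017). The groups did not overlap for any of the 3. The second probe of Manba fell by 0.35, while the second, dim probe of Sgsh differed by -0.01 and was not called.

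The remaining 5 of the class were not called. Their intervals reflect the spread between these arrays under the main processing only. Over the alternatives Glb1 reached -0.20, Hgsnat -0.25 and Naglu -0.04, each outside its interval. Gaa, the glycogen-degrading alpha-glucosidase, differed by 0.13 (95% interval 0.02 to 0.24; limma adjusted p = 0.0641) without overlap between the groups. With slide as a block its adjusted p was 0.0492, the lowest over the alternatives, whose highest was 0.832. Glb1, the beta-galactosidase, differed by -0.03 (-0.18 to 0.12) and on its second probe by -0.17, which was not called either. Idua, the iduronidase, differed by -0.05 (-0.24 to 0.13) and Naglu, the N-acetylglucosaminidase of heparan sulfate, by 0.10 (-0.02 to 0.22). Arrays of both groups overlapped for these 3. Hgsnat, the membrane acetyltransferase of the same degradation route, differed by -0.10 (-0.19 to 0.0009), and its groups did not overlap. With median centring it was called lower (adjusted p = 0.0137, within a range of 0.0137 to 0.517 over the alternatives).

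Of the lipid genes, Psap, Npc2 and Smpd1 rose. Psap, the precursor of the saposins that help enzymes reach lipids, was at 1.97, 1.89 and 1.90 against 1.30, 1.30 and 1.24, and rose by 0.64 ± 0.05 (limma adjusted p = 1.17e-05). Its second probe rose by 0.44. Npc2, which carries cholesterol out of the lumen, was at 0.81, 0.71 and 0.70 against 0.08, 0.16 and 0.08, and rose by 0.63 ± 0.05 (limma adjusted p = 2.12e-05). Smpd1, the acid sphingomyelinase, was at 0.18, 0.06 and 0.07 against -0.30, -0.34 and -0.28, a rise of 0.41 ± 0.05 (limma adjusted p = 0.000243). The groups were apart for all 3. Lipa, the acid lipase, was not called, with a difference of 0.11 (95% interval -0.04 to 0.26; limma adjusted p = 0.213).

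Ppt1, the thioesterase that removes palmitate from proteins, had no single direction. Its brighter probe was at -0.93, -0.95 and -0.95 against -0.74, -0.71 and -0.76, and fell by 0.21 ± 0.04 (limma adjusted p = 0.00361). The other probe was at -0.04, -0.07 and 0.01 against -0.58, -0.46 and -0.48, and rose by 0.47 ± 0.05 (limma adjusted p = 0.00012 over probes). Both probes separated the groups, in opposite directions, and their mean rose by 0.13. From Cy5 alone the fall of the brighter probe had an adjusted p of 0.148, the highest over the alternatives, whose lowest was 0.00163.

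The membrane proteins showed the same kind of split in Lamp2, one of the main structural glycoproteins of the lysosomal membrane, whose isoforms differ in their tails. Its 2 probes are assigned to 2 different RefSeq transcripts. The brighter probe was at -0.84, -0.85 and -0.93 in the knockdown and -0.58, -0.49 and -0.53 with the vector, and fell by 0.34 ± 0.05 (limma adjusted p = 0.000623). The other was at 1.79, 1.78 and 1.82 against 1.34, 1.45 and 1.5, and rose by 0.37 ± 0.05 (limma adjusted p = 0.000576 over probes). In the sample dye this other probe had the higher signal. Its mean log2 Cy5 was 14.24 in the knockdown and 13.87 with the vector, against 12.93 and 13.19 for the probe that fell. The groups were apart on both probes. The mean of the 2 differed by 0.02, and from Cy5 alone the fall had an adjusted p of 0.135. Over the alternatives the adjusted p ran from 0.000174 to 0.805.

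Lamp1, the other main glycoprotein, was at 0.97, 0.99 and 1.00 against 0.77, 0.81 and 0.81. It rose by 0.19 ± 0.04 (limma adjusted p = 0.0052), with no overlap but a small size. Its adjusted p was 0.0597 with median centring and 0.528 from Cy5 alone (0.00257 to 0.528 over the alternatives). Mcoln1, the lysosomal calcium channel, was at 1.46, 1.49 and 1.47 against 0.85, 0.92 and 0.92, and rose by 0.58 ± 0.04 (limma adjusted p = 1.62e-05). Scarb2, which carries glucocerebrosidase to the lysosome, differed by -0.14 (95% interval -0.25 to -0.02; limma adjusted p = 0.0524) and was not called. With the replicate number as a block it was called (adjusted p = 0.034), as was its second probe, which fell by 0.18 (limma adjusted p = 0.0338 over probes); over the alternatives its adjusted p ran from 0.00618 to 0.234.

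**Figure D4:**
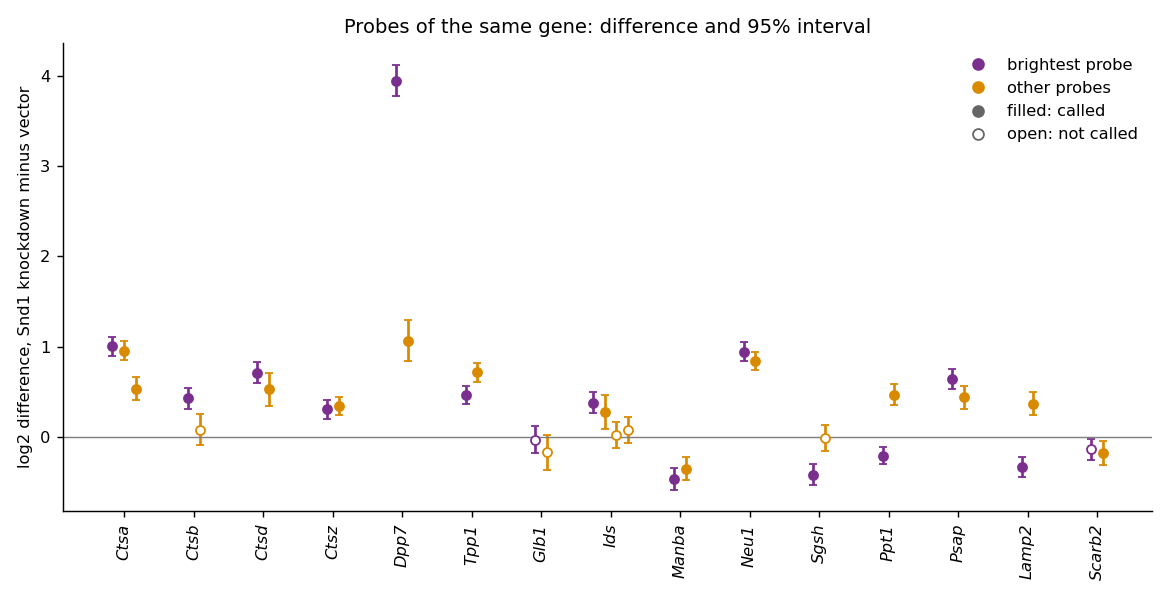
Difference, Snd1 knockdown minus vector, with 95% intervals for every tested probe of the 15 genes with more than 1; purple is the brightest probe, orange the others, and open symbols were not called. Probes of Lamp2 and Ppt1 lie on opposite sides of 0 and both are called, and those of Dpp7 lie at 3.95 and 1.06.

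With each probe tested on its own, 28 of 49 member probes were higher and 9 lower, against 23.6% and 22.1% of all 33562 probes. Of the 15 genes with at least 2 tested probes, Lamp2 and Ppt1 had probes of both signs that were called. The 6 arrays lay on 2 slides, each with both groups. Knockdown minus vector had the same sign on both slides for 30 of the 31 genes tested and for all 24 that were called; Glb1, which was not called, differed by 0.11 on the first slide and by -0.10 on the second.

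The wider lysosomal system was read from lists of genes that were not members, whose counts stand beside 23.7% of all features higher and 21.1% lower. The proton pump rose most evenly: 14 of 16 V-ATPase subunits tested were higher and 0 lower, with a median of 0.52. Atp6v1d was at 2.03, 2.02 and 2.03 against 1.43, 1.41 and 1.43 (rise of 0.61, limma adjusted p = 7.17e-06), and Atp6v1h, Atp6v1a and Atp6v0e rose by 0.60, 0.54 and 0.54. Of 28 other lysosomal hydrolases tested, 13 rose and 11 fell, with a median of -0.0014. Hyal1, a hyaluronidase, went from -1.37, -1.42 and -1.34 to 1.23, 1.25 and 0.99, a rise of 2.54 (limma adjusted p = 1.46e-07). Pla2g15, the lysosomal phospholipase, rose by 1.63, whereas Siae, a sialic acid esterase, fell by 1.23. Hydrolases that were not members thus moved both ways in near equal number. Of 19 other lysosomal membrane proteins, 8 rose and 4 fell (median 0.13). Ostm1, the partner of a chloride exchanger, rose by 1.14 and Abcb9, a peptide transporter, by 0.56, while Slc11a2, an iron transporter, fell by 0.55 and Tpcn1, a cation channel, by 0.46.

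Genes that sort and activate the enzymes rose in 9 of 15 cases and fell in 4 (median 0.21), against the same 23.7% and 21.1% of all features. Sort1, the sortilin receptor that carries enzymes to the lysosome, fell from 2.01, 2.03 and 1.86 with the vector to 0.24, 0.33 and 0.41. That fall of 1.64 (limma adjusted p = 5.97e-07) was larger than any among the members. Gnptg, a subunit of the enzyme that adds the mannose 6-phosphate tag, rose by 0.86, from 0.88, 0.91 and 0.91 to 1.72, 1.80 and 1.75. Lrp1, an endocytic receptor, and Gga2, a sorting adaptor, rose by 0.72 and 0.53. In the list of Tfeb, its family and its regulators, 9 of 19 rose and 4 fell (median 0.19), and the count of lower genes was near that background. Rraga, Lamtor3 and Lamtor4, parts of the nutrient-sensing complex on the lysosome, rose by 0.69, 0.52 and 0.47, and Tsc2, an inhibitor of mTORC1, fell by 0.52. Tfeb and Tfe3 were singled out after their values were seen. Tfeb differed by 0.06 (limma adjusted p = 0.433), and Tfe3 rose by 0.41 (limma adjusted p = 0.00195).

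The second comparison asked what the W391D change in Mtdh does in cells that lack their own Mtdh. It has 1 array per form, so there is no replicate check and no test. Mtdh itself was at 0.42 on the wild-type and -0.10 on the W391D array, and its second probe at 0.01 and -0.16, so the forms also differed in Mtdh signal. The W391D array was higher for 11 of the 32 lysosomal genes and lower for 21, against 49.8% of all 27019 features higher. The median difference was -0.07, against -0.0006 for all features, and none of the members differed by 2-fold in either direction (0% of all features were higher by 2-fold and 0.0037% lower). The absolute difference had a median of 0.09 over the members and 0.08 over all features. Lysosomal transcripts on the 2 arrays were about as close as those of other genes.

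Hgsnat stood apart, at 0.25 on the wild-type and 1.17 on the W391D array. The 0.92 difference was the 2nd highest of 27019 features. The sample signal hardly differed, with Cy5 of 5563 and 5626, while the reference signal at the same spot was 1302 and 722. From Cy5 alone the difference was 0.01, and on the 6 other arrays the reference spot read 1066 to 1508. The next members by size were Naglu, lower by 0.28 (-1.06 and -1.34), Hexa, lower by 0.21 (-0.55 and -0.76), and Idua, higher by 0.20 (-0.37 and -0.17). From Cy5 alone the differences of Naglu, Hexa and Idua were -0.11, -0.10 and -0.21, so the sign for Idua turned. The largest rises of the knockdown had small values here: Dpp7 differed by 0.06 (-1.87 and -1.81), Ctsk by 0.01 (-0.41 and -0.39) and Ctsa by -0.10 (-0.38 and -0.48). In the software's own log ratios, however, Ctsk differed by -0.42.

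**Figure D5:**
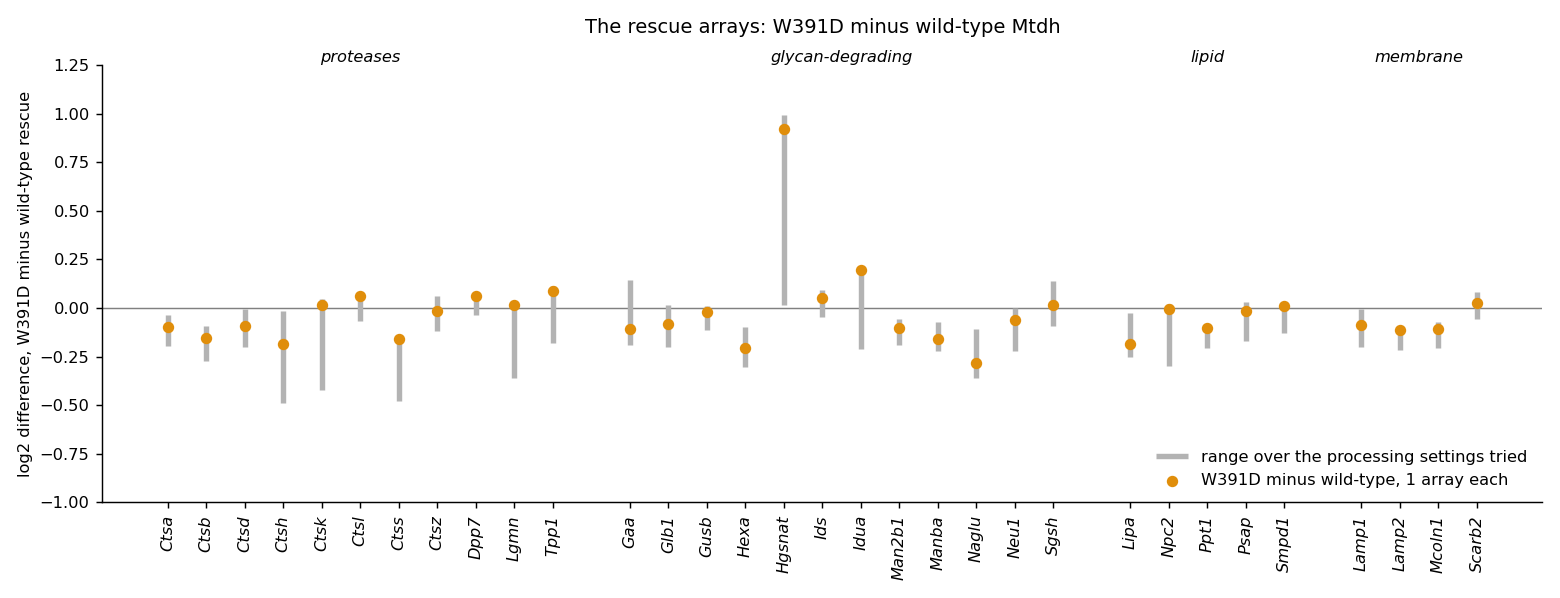
Difference in log2 ratio, W391D minus wild-type Mtdh rescue (1 array each), for each lysosomal gene; grey bars span the values under the processing settings tried. Hgsnat lies at 0.92 with a bar reaching down to 0.01, and the other members lie between -0.28 and 0.20.

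The KO2 rescue arrays lay apart from the WTA vector arrays for most members. The lines differ in genotype, origin, construct and selection, which cannot be told apart. Both rescue arrays were above all 3 vector arrays for 14 genes and below them for 13, against 32.9% and 26.3% of all features, and they overlapped for 4. Below the vector arrays were the main cathepsins Ctsa, Ctsb, Ctsd, Ctsl and Ctsz, with Tpp1, Neu1, Npc2, Psap, Ppt1, Mcoln1, Lamp2 and Scarb2. Ctsb, for example, was at -0.56 and -0.72, and Ctsz at -0.96 and -0.97. Above them were Ctsh, Ctsk, Dpp7, Lgmn, Gaa, Glb1, Gusb, Hexa, Hgsnat, Ids, Manba, Sgsh, Lipa and Lamp1. Sgsh reached 2.17 and 2.18 against a vector mean of 1.31 ± 0.05 (SD, n = 3), and Ctsh 3.30 and 3.11 against 2.71 ± 0.07. The knockdown and rescue values share these vector arrays, so their positions relative to them are not independent.

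Against the reference RNA, 8 members (Ctsd, Ctsh, Tpp1, Man2b1, Sgsh, Psap, Lamp1 and Mcoln1) were above it on all 8 arrays. Another 10 were below it on every array with a value, among them Lgmn, Gusb, Ppt1, Lamp2, Scarb2 and Ctss. The mean of the vector arrays was above the reference for 11 members, against 50.2% of all features, and that of the knockdown arrays for 19, against 52% of all features. The median ratio of the members was 0.23, 0.21 and 0.15 on the knockdown arrays, -0.19, -0.04 and -0.21 on the vector arrays, and -0.38 and -0.36 on the wild-type and W391D rescue arrays. The knockdown arrays were thus the only ones whose median lay above the reference.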

How the data were processed

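The members, the gene lists and the tests were chosen with earlier results of these data known. Per the file headers, the deposited intensity values are the median brightness of a spot's pixels in Cy5 and Cy3 and of the area around it. The headers name Agilent Feature Extraction, version 11.0.1.1, while the submitters' processing notes give 9.5.3.1. The same files hold deposited log10 ratios of Cy5 over Cy3, background-subtracted and dye-normalized by that software, per the file headers. The authors' deposited value table holds log2 ratios, not centred, that match these (r from 0.988 to 1 with the own array); its column medians were 0.0906, 0.105, 0.118, 0.146, 0.119, 0.116, 0.0256 and 0.0345, for knockdown, vector, wild-type and W391D arrays in turn.

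From the intensities, log2 ratios were computed in R 4.3.3 with the package limma 3.58.1, by normexp (offset 50) and then loess within arrays. No dyes were swapped. The 1639 control spots and the 77 to 142 outlier spots per array were left out, and spots of a probe were averaged. Unversioned accessions were matched to a RefSeq gene table, which named 27668 of 41174 probes and left 13506 without a symbol. The brightest probe stood for a gene. A feature was tested if 3 or more of the 6 arrays had its Cy5 well above background and each group had at least 2 values. Knockdown and vector were compared with lmFit and eBayes and Benjamini-Hochberg adjustment over all 25672 features, and called at an adjusted p under 0.05; the method was tested on simulated data. Figures were drawn with matplotlib, and promoters were searched in a RefSeq table of GRCm38.p6. The number of arrays limits the precision of every value.

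The naming rule took all members with their probes, Snd1, Mtdh and, of each other list, up to 4 called genes with the smallest adjusted p; for cell markers also Ptprc, Csf1r, Cd68, Col1a1, Pdgfrb, Epcam and Krt8. A gene that this rule took is not reported here. The main fit was unpaired and had no term for replicate number or slide. Only in the replicate block were replicate numbers taken to pair the arrays. Once group means were removed, knockdown and vector arrays of the same number correlated at 0.60, 0.33 and 0.34. Differently numbered arrays of the second slide did so too, at 0.39 and 0.25, and arrays of different slides correlated at -0.50 to -0.38. Alternatives were other background corrections and normalizations, the Cy5 channel alone, other filters, the mean of all probes, blocks for replicate number and slide, the second slide alone, array weights, a trended robust eBayes and each replicate left out.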

Additional observations from a re-analysis of the deposited data

How the results depend on the processing

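Each of the 20 alternatives left between 13 and 18 members higher and between 5 and 9 lower, within 1.5 times the counts of 17 and 7. The median difference moved beyond the spread between arrays with the mean of all probes (0.19), and ran from 0.29 to 0.33 with 1 replicate left out. Signs turned for values near 0: with median centring, Naglu (-0.0401) and Lipa (-0.0431); from Cy5 alone, Idua (0.11); and with 1 replicate left out, Glb1 (-0.0953 to 0.0279, turned without Snd1 knockdown replicate 3) and Idua (-0.1263 to 0.0364, turned without vector replicate 2). With the mean of all probes Ppt1 (0.13) and Lamp2 (0.017) turned, because their probes disagree. The cause of the other turns was not tested. The replicate block, as a paired fit, left 17 higher and 8 lower, and changed no call of a member other than Scarb2. Over the alternatives the median W391D minus wild-type difference of the members ran from -0.17 to -0.02. Over the alternatives, genes called higher ran from 1 to 6 for the leukocyte markers (2 as reported), 1 to 5 for the osteoclast markers (3), 4 to 8 for the fibroblast markers (7), 1 to 3 for the epithelial markers (2), 5 to 10 for sorting and activation (9), 6 to 11 for Tfeb and its regulators (9) and 2 to 4 for the cathepsin inhibitors (3). Ctsk, with Cy5 well above background on 5 of 6 arrays, differed by 3.47 to 5.38 over the alternatives.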

Other observations

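Genes of autophagy, which delivers cell material to lysosomes, were mostly higher in the Snd1 knockdown. Of 17 tested, 13 rose and 1 fell, with a median of 0.44, against 23.7% and 21.1% of all features. Sqstm1, the cargo receptor p62, was at 2.39, 2.54 and 2.49 in the knockdown and at 1.55, 1.67 and 1.59 with the vector, a rise of 0.87 (limma adjusted p = 7.4e-06). Vps18, of the complex that fuses endosomes and autophagosomes with lysosomes, rose by 0.86, and Map1lc3a and Map1lc3b, which mark autophagosome membranes, by 0.84 and 0.67. The groups did not overlap for Sqstm1.

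Of 7 inhibitors of cathepsins, 3 rose and 1 fell, against 23.7% of all features higher and 21.1% lower. Cst3, the secreted cystatin C, was at -1.67, -1.58 and -1.57 in the knockdown, at -3.12, -2.90 and -2.90 with the vector, and at -0.30 and -0.31 on the rescue arrays. It rose by 1.37 (limma adjusted p = 2.01e-06). Cstb, a cytosolic inhibitor, was at 1.48, 1.45 and 1.47 against 0.49, 0.46 and 0.48 and rose by 0.99 (limma adjusted p = 6.62e-07), as Serpinb6a did by 0.15. Stfa1, a stefin, fell by 1.01 (limma adjusted p = 0.000548), from 2.22, 2.79 and 2.65 to 1.41, 1.70 and 1.53, with no overlap.

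Among the cell markers, Postn, Pdgfrb and Fbln2 rose by 2.72, 2.44 and 1.27 in the knockdown, and Elf5, Esrp1, Krt14 and Krt8 fell by 2.03, 1.36, 1.15 and 0.86. Not all epithelial markers fell: 2 of the 12 were called higher, against 23.7% of all features. Of the leukocyte markers Aif1 and Mpeg1 rose by 0.48 and 0.29, and Cd14 and Csf1r fell by 0.47 and 0.30. Nfatc1, Itgb3 and Oscar, of the osteoclast list, rose by 0.35, 0.25 and 0.16, while Acp5 of the same list fell by 0.92.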
